A study of Mus musculus with 6 samples.

Results

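The tropomyosin genes Tpm1, Tpm2, Tpm3 and Tpm4 and 4 of their partners on actin filaments, Actn1, Actn4, Cald1 and Vcl, were followed in the aortic valve at the level of the gene and of the single exon. The members were the rows of the gene and exon tables that carried these 8 gene names, with 1 row kept for each set of exon coordinates, which gave 8 of 46983 genes and 244 of 387776 exons. The libraries were RNA-seq of aortic valves dissected from wild type C57BL/6J mice at PND2 (postnatal day 2) and at 4 months, by a dissection meant to leave little myocardium. Each age had 3 libraries, labelled as biological replicates, and each library came from a pool of 5 to 6 mice. All levels are RPKM, the reads on a gene or exon scaled to its length and to the total reads of the library. Library totals ran from 23810507 to 38994657 reads, and the p-values measure the spread between 3 pools per age.

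Tropomyosin is a coiled-coil dimer that lies along the actin filament and sets which myosins and other proteins can reach it. Tropomyosin forms differ by the choice of first exon (1a or 1b) and of last exon (9a to 9d). They also differ by the internal exon taken from a mutually exclusive pair (2a or 2b, 6a or 6b), and not every gene has every choice. In Tpm1, exon 2a marks the smooth muscle form, exon 9a the striated muscle form, and exon 9d the smooth and non-muscle forms. The striated form holds exon 2b, which is not read here as a marker of that form alone. In Tpm2, exons 6b and 9a belong to the striated muscle form and exons 6a and 9d to the smooth and non-muscle form. The alpha-actinins Actn1 and Actn4 cross-link actin filaments, caldesmon (Cald1) binds actin and tropomyosin and restrains myosin, and vinculin (Vcl) ties filaments to adhesions.

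The paired exons of Tpm1 and Tpm2 are shown first because the use of these exons is what the comparison turns on. Sequences are from GENCODE M21 transcripts on mm10, given 5′ to 3′ on the minus strand of each gene, and capitals mark the positions at which the exons of a pair differ when they are aligned without gaps. Tpm1 exon 2a lies at chr9:67048124-67048249 and exon 2b at chr9:67047786-67047911. Both are coding exons of 42 codons, and they are identical at 60 positions (47.6%). Of 16 annotated protein-coding transcripts, 3 hold exon 2a, 8 hold exon 2b and 1 holds both.
Tpm1 2a: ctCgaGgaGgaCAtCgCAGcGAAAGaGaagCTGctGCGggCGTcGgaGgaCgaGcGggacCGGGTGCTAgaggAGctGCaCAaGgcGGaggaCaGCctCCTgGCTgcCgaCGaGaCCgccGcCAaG
Tpm1 2b: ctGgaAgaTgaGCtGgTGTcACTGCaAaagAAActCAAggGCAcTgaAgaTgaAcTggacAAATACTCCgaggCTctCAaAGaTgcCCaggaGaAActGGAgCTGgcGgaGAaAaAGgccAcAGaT

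Tpm2 exon 6a lies at chr4:43519003-43519078 and exon 6b at chr4:43518644-43518719. They are coding exons of 76 bases, identical at 41 positions (53.9%), and no annotated transcript of this gene holds both.
Tpm2 6a: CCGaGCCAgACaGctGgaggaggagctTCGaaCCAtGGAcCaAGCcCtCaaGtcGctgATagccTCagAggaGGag
Tpm2 6b: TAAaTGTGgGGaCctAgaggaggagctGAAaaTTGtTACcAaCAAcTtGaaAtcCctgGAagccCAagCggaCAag

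The same pair in Tpm1, at chr9:67032466-67032541 and chr9:67031951-67032026, serves as the contrast to Tpm2 and is identical at 43 of 76 positions (56.6%). Across the genes, exon 6b of Tpm1 matched exon 6b of Tpm2 at 73.7% of positions and exon 6a matched exon 6a at 64.5%, so each exon was closer to its counterpart in the other gene than to its neighbour in its own.
Tpm1 6a: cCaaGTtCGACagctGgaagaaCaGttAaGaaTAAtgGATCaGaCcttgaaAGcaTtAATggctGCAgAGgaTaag
Tpm1 6b: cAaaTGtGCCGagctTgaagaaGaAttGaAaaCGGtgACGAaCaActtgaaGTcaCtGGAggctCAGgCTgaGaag

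Among the partners, Actn1 carries a non-muscle exon of 81 bases (27 codons) and a smooth muscle exon of 66 bases (22 codons) in its EF-hand region, and Actn4 carries 2 alternative exons of 86 bases at exon 8. The Actn1 exons lie at chr12:80170686-80170766 (non-muscle) and chr12:80170183-80170248 (smooth muscle), differ in length and are shown without capitals. The Actn4 exons lie at chr7:28911490-28911575 (upstream) and chr7:28909903-28909988 (downstream) and are identical at 65 of 86 positions (75.6%), with capitals at the other 21.
Actn1 non-muscle: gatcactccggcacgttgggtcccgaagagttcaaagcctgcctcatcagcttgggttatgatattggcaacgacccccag
Actn1 smooth muscle: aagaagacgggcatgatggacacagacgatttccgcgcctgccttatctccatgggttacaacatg
Actn4 upstream: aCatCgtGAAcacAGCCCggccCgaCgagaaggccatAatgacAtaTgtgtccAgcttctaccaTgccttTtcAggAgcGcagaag
Actn4 downstream: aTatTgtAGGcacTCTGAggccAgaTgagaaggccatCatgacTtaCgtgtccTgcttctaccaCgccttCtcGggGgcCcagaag

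Markers of muscle cells moved with age in these libraries, and their levels are given here beside the members. Over all genes tested, 35.8% changed at an adjusted p under 0.05 (limma), 14.7% higher and 21.1% lower at 4 months. Of 6 smooth muscle markers, 6 rose by 4 months, and their summed level was 7178 to 8268 RPKM at PND2 and 16547 to 27656 RPKM at 4 months. Of 12 cardiomyocyte markers, 7 fell and none rose, and their summed level was 18312 to 21152 RPKM at PND2 and 7145 to 10982 RPKM at 4 months. These markers did not fall alike. Tnni1 fell most, from a mean of 440 to 0.855 RPKM, and the 5 that did not pass were Myh6, Myl7, Tnni3, Nppa and Ryr2. The other troponin I gene, Tnni3, went from a mean of 730 to 607 RPKM (adjusted p = 0.311, limma). Myh6 went from 3335 to 2164 RPKM (adjusted p = 0.0510, limma). The sum therefore mixes genes that changed to unlike extents and does not measure the amount of cardiomyocytes. Cardiomyocyte markers were abundant in the dissected valves at both ages. Replicate 2 at 4 months had the highest cardiomyocyte sum and the lowest smooth muscle sum of its age. It also had the highest sums of adipocyte markers (436 RPKM against 122 and 149) and erythroid markers (1087 RPKM against 371 and 699) of its age. In whole tissue, fewer cells of a type and less RNA per cell cannot be told apart. Of the 8 skeletal muscle markers 4 fell, with sums of 933 to 1396 RPKM against 265 to 576 RPKM, most of which was Ckm and Acta1, while the skeletal alpha-actinin Actn3 stayed at 0.472 to 1.98 RPKM throughout. All 6 endothelial markers fell, from sums of 338 to 467 RPKM to 194 to 205 RPKM. The 8 interstitial markers summed to 6501 to 7152 RPKM at PND2 and 8033 to 10135 RPKM at 4 months, with 2 called higher and 4 lower. Of the smaller lists, 5 of 5 macrophage and 4 of 5 adipocyte markers rose, 2 of 4 melanocyte markers fell, 1 of 3 Schwann cell markers rose, and none of the 3 erythroid markers tested passed. The part of these cell type markers in the results on the members was not tested.

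Of the 8 genes, 4 rose (Tpm2, Actn1, Actn4 and Cald1), 2 fell (Tpm3 and Tpm4) and 2 did not pass the test (Tpm1 and Vcl) by limma on log2(RPKM + 0.1) with Benjamini-Hochberg adjustment over all genes. Among the 25903 genes tested, 35.8% passed the same test (14.7% higher and 21.1% lower at 4 months). Over all genes the median log2 fold change was -0.14, and -0.016 when each library was scaled to its median. The higher calls were then 52.7% of all calls, against 41.1% without that scaling. The 4 rises and 2 falls were the same 6 genes whichever library was left out.

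**Figure D1:**
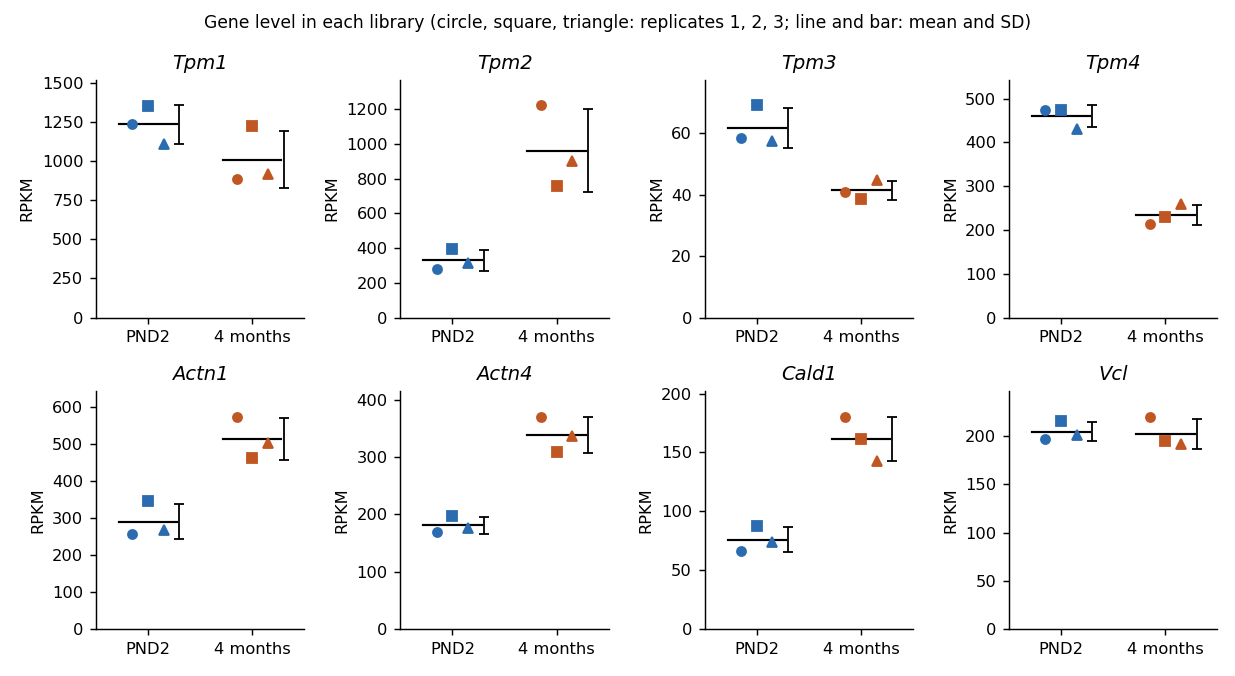
RPKM of each of the 8 genes in the 3 PND2 libraries (blue) and the 3 libraries from 4 months (orange), with the mean as a line and the SD as a bar. Tpm2, Actn1, Actn4 and Cald1 lie higher in every library from 4 months, Tpm3 and Tpm4 lie lower, and the ages overlap for Tpm1 and Vcl.

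Tpm1, the main tropomyosin of striated muscle (chr9:67022590-67049406), stood at 1237, 1353 and 1108 RPKM at PND2 and at 886, 1220 and 919 RPKM at 4 months. The ages overlapped, since replicate 2 at 4 months lay within the PND2 range. Its log2 fold change was -0.30 ± 0.17 (SE, adjusted p = 0.214, limma). By gene RPKM, Tpm1 was the highest of the 4 tropomyosin genes in 5 of 6 libraries, and Tpm2 was higher in replicate 1 at 4 months. That order depends on the annotated length. In that library Tpm1 had more reads than Tpm2 (214656 against 132902), over 6485 exonic bases against 2909.

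Tpm2, beta-tropomyosin (chr4:43514711-43523765), rose from 278, 397 and 315 RPKM at PND2 to 1223, 757 and 902 RPKM at 4 months. The lowest library at 4 months was well above the highest at PND2. The mean went from 330 ± 60.7 to 961 ± 239 RPKM (SD, n = 3), which gave a log2 fold change of 1.53 ± 0.21 (SE, adjusted p = 0.00178, limma).

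Tpm4, which makes the short non-muscle form (chr8:72134975-72153142), was at 474, 475 and 431 RPKM at PND2 and at 214, 229 and 259 RPKM at 4 months. It was lower in every library from 4 months, with a log2 fold change of -0.98 ± 0.11 (SE, adjusted p = 7.58e-04, limma). Tpm4 overlaps the annotated antisense genes Gm16091 and Gm26586, and the sources used here do not say if reads were counted by strand.

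Tpm3, the gene of slow skeletal muscle and non-muscle forms (chr3:90072649-90100902), was at 58.4, 69.1 and 57.5 RPKM at PND2 and at 40.8, 38.7 and 44.6 RPKM at 4 months. The ages did not overlap, and the log2 fold change was -0.57 ± 0.11 (SE, adjusted p = 0.00629, limma). The level of Tpm3 is uncertain, because the Tpm3-like gene Tpm3-rs7 was listed at 121 to 148 RPKM at PND2 and at 81.3 to 88.1 RPKM at 4 months and reads could be shared between them. Within Tpm3, 10 coding exons had a median of 38.6 RPKM at PND2 and 25.01 RPKM at 4 months, whereas the last exon stood at 217 and 143 RPKM.

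The make-up of the tropomyosin RNA differed between the ages in every library, while its sum overlapped. Tpm1 to Tpm4 summed to 2048, 2293 and 1911 RPKM at PND2 and to 2364, 2244 and 2125 RPKM at 4 months (exact permutation test, 2-sided p = 0.3). Tpm2 made up 13.6 to 17.3% of that sum at PND2 and 33.7 to 51.7% at 4 months. Tpm4 made up 20.7 to 23.2% and then 9.04 to 12.2%, and Tpm1 58.0 to 60.4% and then 37.5 to 54.4%. For each of these shares the ages were fully separated, at p = 0.1 in the exact permutation test, which is the smallest 2-sided p that 3 against 3 libraries allow. Gene RPKM divides by all annotated exonic bases, 6485 in Tpm1 and 2909 in Tpm2, of which a given form uses only some, so shares between genes depend on the annotation.

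Actn1 (chr12:80167542-80260371), a cross-linker of stress fibres and adhesions, rose from 258, 345 and 268 RPKM to 575, 464 and 503 RPKM. The lowest library at 4 months exceeded the highest at PND2. The log2 fold change was 0.83 ± 0.15 (SE, adjusted p = 0.00501, limma).

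Actn4 (chr7:28893248-28962340), its broadly expressed relative, rose from 169, 198 and 175 RPKM to 371, 308 and 336 RPKM. Its log2 fold change was 0.90 ± 0.11 (SE, adjusted p = 0.00115, limma). The striated muscle alpha-actinin Actn2, a cardiomyocyte marker here, went the other way, from 532 to 620 RPKM at PND2 to 153 to 302 RPKM at 4 months. The log2 fold change of Actn2 was -1.44 ± 0.23 (SE, adjusted p = 0.00336, limma).

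Cald1 (chr6:34598500-34775473) rose from 66.3, 87.2 and 73.8 RPKM to 181, 161 and 143 RPKM. Its log2 fold change was 1.09 ± 0.13 (SE, adjusted p = 0.00113, limma). Every library at 4 months lay above every PND2 library. Vcl (chr14:20929433-21033673) was at 197, 216 and 201 RPKM and then at 220, 195 and 192 RPKM, with a fold change on the log2 scale of -0.017 ± 0.097 (SE, adjusted p = 0.913, limma). The libraries of the ages interleaved for Vcl, and the sign of its difference changed with median scaling and with the library left out. Actn4, Cald1 and Vcl overlap other annotated genes (Capn12; Npn2, Gm13861 and Gm14547; Ap3m1).

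Mutually exclusive exons have equal lengths in tropomyosins and lie side by side, so the ratio of such a pair needs no correction for length. All neighbouring exons of equal length in a gene were paired by coordinates over the whole table, and 1807 pairs passed the filter. Of these, 4 (0.221%) changed their ratio at an adjusted p under 0.05, 2 (0.111%) toward the upstream and 2 (0.111%) toward the downstream exon, and 142 had an unadjusted p under 0.05. The count was 10 without replicate 2 at 4 months and 2 without replicate 3 at 4 months. One of the 4 was the Tpm2 exon 6 pair, and the others were pairs of Cox19, Calu and Nebl, named here after their values were seen.

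**Figure D2:**
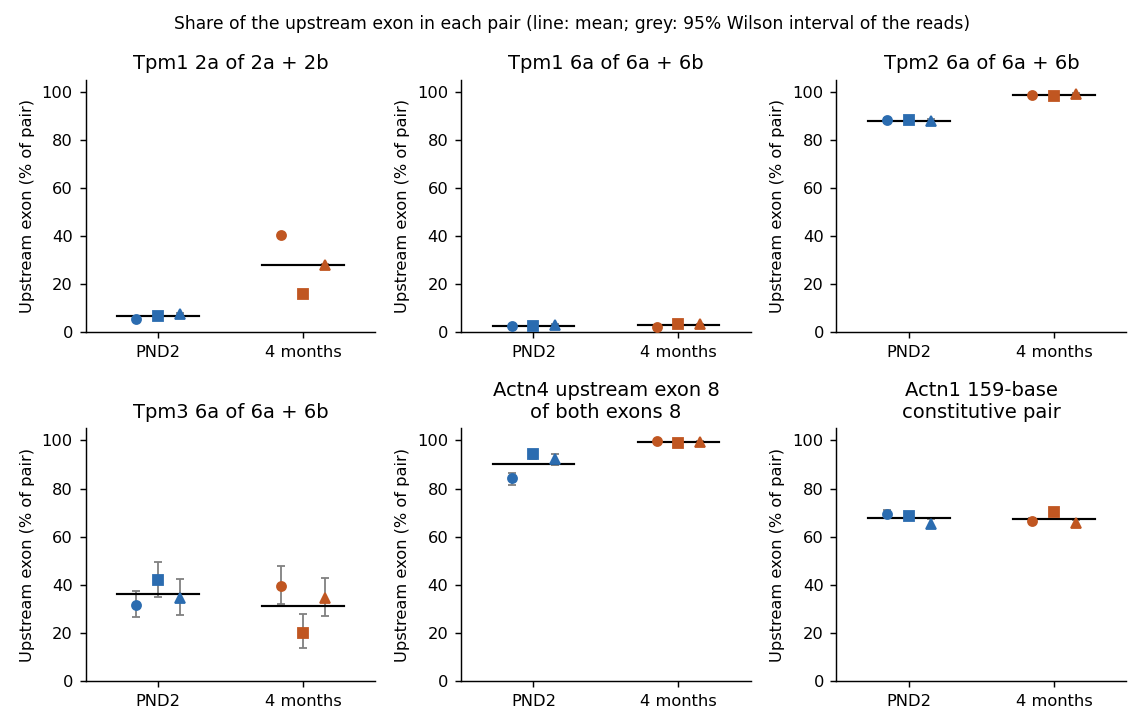
Share of the upstream exon in the RPKM of its pair, in each library at PND2 (blue) and 4 months (orange), with the mean as a line and the 95% Wilson interval of the reads in grey. The share of Tpm2 exon 6a is 87.6 to 88.2% at PND2 and 98.0 to 99.2% at 4 months, that of Tpm1 exon 2a is 5.70 to 7.50% and 16.0 to 40.2%, and a pair of constitutive Actn1 exons has means of 67.8 and 67.5%.

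In Tpm2 the exons of the pair differed between the ages in opposite directions. The smooth and non-muscle exon 6a stood at 914, 1199 and 997 RPKM at PND2 and at 4487, 2714 and 3237 RPKM at 4 months. The striated exon 6b stood at 122, 162 and 141 RPKM at PND2 and at 56.4, 54.2 and 26.4 RPKM at 4 months. Neither exon overlapped between the ages.

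Exon 6b made up 11.8, 11.9 and 12.4% of the Tpm2 pair at PND2 and 1.24, 1.96 and 0.808% at 4 months, from 2531 to 12898 reads on the pair in a library. The widest 95% Wilson interval reached 1.34 percentage points from its share, and such intervals cover counting error only. Here and below they take each read as independent, and are too narrow if both ends of a sequenced fragment were counted. The log2 ratio of 6a to 6b rose by 3.43 ± 0.29 (SE, adjusted p = 0.00751, limma over all pairs). The call was lost without PND2 replicate 1 (3.44, adjusted p = 0.0620) and without the variance trend (adjusted p = 0.0579). It was kept when any other library was left out, at adjusted p from 0.00110 to 0.0496, replicate 2 at 4 months included.

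In Tpm1 the smooth muscle exon was a larger share of the exon 2 pair in every library from 4 months, but the change of its ratio did not pass the test over all pairs. Exon 2a stood at 382, 505 and 477 RPKM at PND2 and at 1565, 983 and 1276 RPKM at 4 months. Exon 2b stood at 6319, 6930 and 5879 RPKM at PND2 and at 2323, 5171 and 3302 RPKM at 4 months. Exon 2a was higher and exon 2b lower in all 3 libraries from 4 months, least so in replicate 2.

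Exon 2a made up 5.70, 6.79 and 7.50% of the pair at PND2 and 40.2, 16.0 and 27.9% at 4 months. At 16696 to 32920 reads per pair, counting error stayed within 0.713 percentage points. The log2 ratio of 2a to 2b differed by 2.37 ± 0.42 (SE, adjusted p = 0.101, limma over all pairs). Without replicate 2 at 4 months it was 2.85 (adjusted p = 0.0142), and with 1 RPKM added in place of 0.1 it was 2.37 (adjusted p = 0.0309). In that replicate 2, exon 2b (5171 RPKM), Actn2 (302 RPKM) and the cardiomyocyte sum (10982 RPKM) were each the highest of their age, and exon 2a (983 RPKM) and the smooth muscle sum (16547 RPKM) the lowest.

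The exon 6 pair of Tpm1 did not follow that of Tpm2. Exon 6b, at 9944, 10359 and 7910 RPKM and then 5865, 8916 and 6041 RPKM, was the main exon at both ages. Exon 6a was at 252, 287 and 251 RPKM and then at 126.5, 299 and 206 RPKM. Its share of the pair was 2.48 to 3.07% at PND2 and 2.11 to 3.30% at 4 months, and the log2 ratio differed by 0.049 ± 0.18 (SE, adjusted p = 0.971, limma).

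The exon 6 pair of Tpm3 rested on at most 271 reads per library. Exon 6a made up 31.7, 42.0 and 34.4% of the pair at PND2 and 39.6, 19.8 and 34.5% at 4 months, a log2 ratio difference of -0.35 ± 0.38 (SE, adjusted p = 0.890, limma). Counting error reached 8.22 percentage points here, and a change of a few points was not detectable at this depth. Any reads shared with Tpm3-rs7 could also affect the exon pairs of Tpm3. As a reference, the other pairs of equal length, a constitutive pair in Actn1 and a pair of 134 bases in Tpm3, had log2 ratio differences of -0.015 ± 0.10 and 0.50 ± 0.23 (SE), neither past the test.

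**Figure D3:**
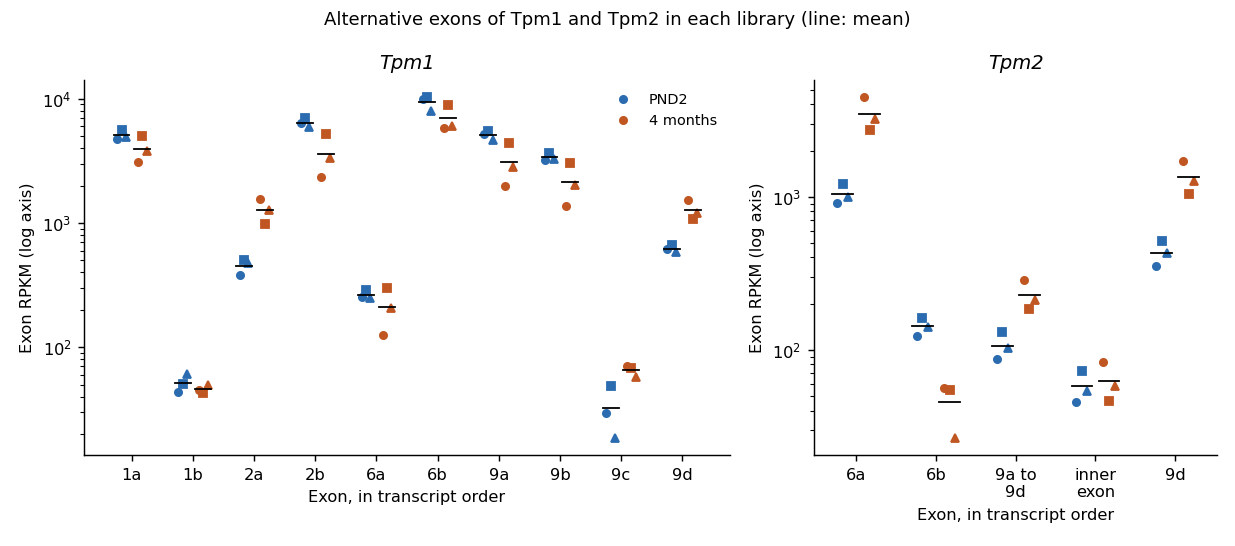
RPKM of the alternative exons of Tpm1 and Tpm2 in each library, in transcript order on a log axis, with PND2 in blue, 4 months in orange and the mean as a line. Exons 2a and 9d of Tpm1 and exons 6a and 9d of Tpm2 lie higher in all libraries from 4 months, and exons 2b and 9a of Tpm1 and exon 6b of Tpm2 lie lower.

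The ends of Tpm1 were read from unequal exons, each set against its gene. Exon 1a, the first exon of the long forms, stood at 4765 to 5619 RPKM at PND2 and 3069 to 5030 RPKM at 4 months. Exon 1b, the first exon of the short forms, stood at 43.9 to 60.3 and 43.0 to 49.99 RPKM. Its share of both first exons was 0.889 to 1.22% at PND2 and 0.847 to 1.44% at 4 months, and the ages overlapped.

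At the other end of Tpm1, the striated exon 9a was at 5188, 5519 and 4662 RPKM at PND2 and at 1998, 4436 and 2846 RPKM at 4 months. The last exon 9d was at 613, 668 and 587 RPKM at PND2 and at 1544, 1066 and 1199 RPKM at 4 months. Exon 9d made up 10.6, 10.8 and 11.2% of 9a and 9d at PND2 and 43.6, 19.4 and 29.6% at 4 months (exact permutation test, p = 0.1), the same order of libraries as the share of exon 2a at 4 months.

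Against its gene, the use of exon 9d differed by 1.31 ± 0.25 on the log2 scale (SE, adjusted p = 0.174) and that of exon 9a by -0.50 ± 0.17 (adjusted p = 0.366, limma over 229319 exons). The use of exon 2a differed by 1.77 ± 0.31 (adjusted p = 0.157) and that of exon 2b by -0.60 ± 0.17 (adjusted p = 0.305, limma). None of these passed in the main test. Exons 2a and 9d passed under both alternatives that set an exon against the other exons of its gene, and in none of the remaining 12. Exon 9c, the last exon of the brain form, was low at 18.5 to 48.7 and then 58.0 to 70.9 RPKM, a difference in use of 1.42 ± 0.30 (SE, adjusted p = 0.208, limma).

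In Tpm2, the only member exons that passed the exon test lay in 1 stretch of 1293 bases at the end of the gene (chr4:43514711-43516003). It starts with the coding part of exon 9a and runs through to the end of exon 9d, and its use fell by 0.45 ± 0.026 on the log2 scale (SE, adjusted p = 0.0287, limma). A second row of 1292 bases is the same stretch less 1 base. An inner row of 160 bases (chr4:43515682-43515841) fell in use by 1.43 ± 0.068 (SE, adjusted p = 0.0215, limma). That inner exon stood at 45.7, 72.9 and 54.0 RPKM at PND2 and at 82.8, 46.5 and 58.1 RPKM at 4 months, while its gene rose.

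The part of the stretch outside exon 9d stood at 52.0, 80.1 and 59.1 RPKM at PND2 and at 96.0, 69.5 and 72.1 RPKM at 4 months. Exon 9d itself (151 bases) went from 352, 509 and 426 RPKM to 1699, 1046 and 1269 RPKM. Exon 9d made up 87.1, 86.4 and 87.8% of the summed RPKM of these parts at PND2 and 94.7, 93.8 and 94.6% at 4 months (exact permutation test, p = 0.1). The rows overlap and share reads, so the 3 calls are 1 observation. Each call was lost when any 1 library was left out, with adjusted p for the inner row from 0.0628 to 0.171 and a difference in use from -1.46 to -1.38.

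Tpm3 and Tpm4 gave no exon that passed. The first exon and exon 2 of the long Tpm3 form held 6, 0 and 2 and then 0, 0 and 4 reads in the PND2 libraries and 0 in each library from 4 months, where a count of 0 allows up to 3 reads. Exon 1b of the short Tpm3 form was at 78.5 to 141 RPKM and then 66.5 to 81.4 RPKM. The last exons 9a and 9d of Tpm3 differed in use by -0.47 ± 0.23 (SE, adjusted p = 0.511) and -0.025 ± 0.014 (SE, adjusted p = 0.562, limma). In Tpm4, 10 exon rows differed in use by -0.24 to 0.066 only.

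**Figure D4:**
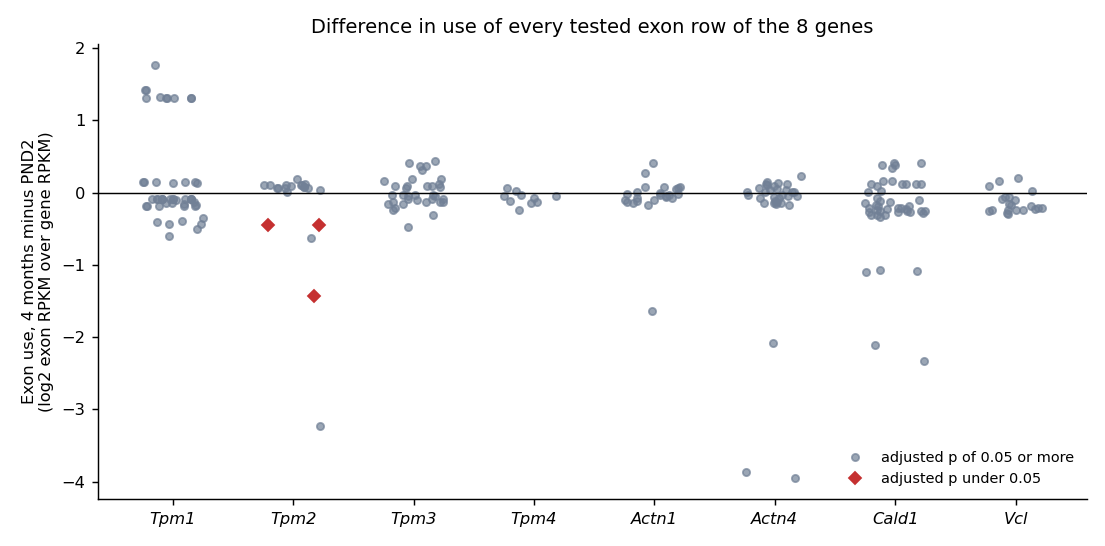
Difference in exon use between 4 months and PND2 (log2 exon RPKM over gene RPKM) for each of the 237 tested exon rows of the 8 genes, with red diamonds for an adjusted p under 0.05. Most rows lie near 0, the 3 red rows are overlapping rows of Tpm2, and single exons of Tpm1, Tpm2, Actn1, Actn4 and Cald1 lie far from the rest of their gene.

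Over the 8 genes, 237 of 244 exon rows passed the filter, and 3 of them (1.27%) passed the test, against 0.0863% of the 229319 exons of the whole table (0.0366% higher and 0.0497% lower at 4 months). All 3 were lower. At an unadjusted p under 0.05 there were 78 (32.9%), against 11.7% of all exons. Rows of a gene overlap and share a denominator, so these counts describe the genes and are not independent. Without any 1 library, 0 member exons passed. The count also depended on the test. It was 17 with diffSplice, where 1421 exons of the whole table were higher and 1669 lower, and 18 against the mean of the other exons, where 1058 were higher and 690 lower. It was 1 with no variance trend and 0 with the replicate number as a block, under which 0 exons of the whole table passed.

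In Actn1 the smooth muscle EF-hand exon was a larger share of the EF-hand exons in every library from 4 months. The smooth muscle exon stood at 350.5, 537 and 383 RPKM at PND2 and at 1160, 893 and 908 RPKM at 4 months. The non-muscle exon stood at 185, 204 and 170 RPKM and then at 97.5, 100.1 and 121 RPKM, so it was lower in all 3 libraries from 4 months although the gene as a whole rose.

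The smooth muscle exon made up 65.5, 72.5 and 69.3% of the Actn1 EF-hand exons at PND2 and 92.2, 89.9 and 88.3% at 4 months (exact permutation test, p = 0.1). The use of the non-muscle exon differed by -1.64 ± 0.15 (SE, adjusted p = 0.0542) and that of the smooth muscle exon by 0.41 ± 0.065 (SE, adjusted p = 0.139, limma). The non-muscle exon passed in 4 of 14 alternatives, at adjusted p from 3.59e-10 to 0.460 over all of them. Unlike Tpm1, the 3 libraries from 4 months lay close together here, and replicate 2 was not the lowest.

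**Figure D5:**
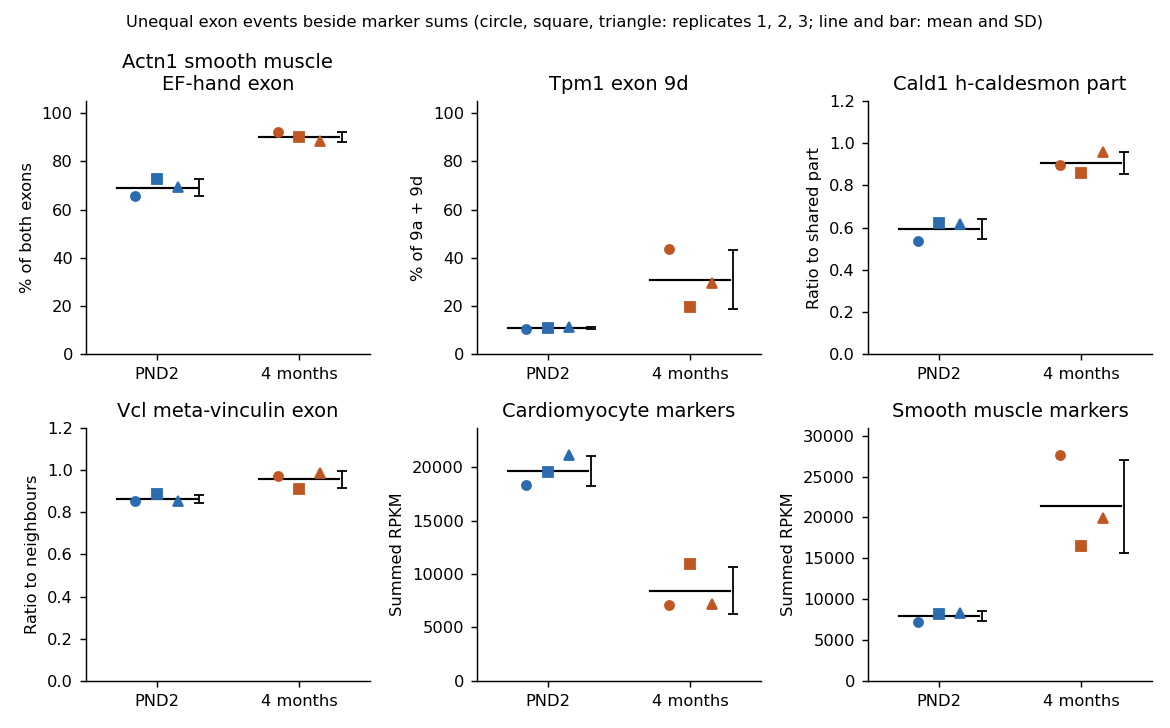
Exon events of unequal length in each library beside the summed RPKM of 12 cardiomyocyte and 6 smooth muscle markers, with PND2 in blue, 4 months in orange, the mean as a line and the SD as a bar. The Actn1 smooth muscle exon holds 65.5 to 72.5% at PND2 and 88.3 to 92.2% at 4 months, and the Tpm1 exon 9d share spreads from 19.4 to 43.6% at 4 months.

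In Actn4 the main exon 8, the upstream one, stood at 211, 229 and 186 RPKM and then at 478, 397 and 406 RPKM. The downstream exon 8 was rare, at 39.7, 13.7 and 15.5 RPKM (133, 36 and 39 reads) at PND2 and 1.25, 3.91 and 3.21 RPKM (4, 8 and 8 reads) at 4 months. It made up 15.8, 5.64 and 7.68% of the pair at PND2 and 0.260, 0.974 and 0.786% at 4 months. PND2 replicate 1 was well above the other PND2 libraries, and the ages did not overlap.

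The log2 ratio of the Actn4 exons differed by 4.00 ± 0.58 (SE, adjusted p = 0.0641, limma over all pairs). With 1 RPKM added in place of 0.1 it was 3.60 (adjusted p = 0.0134), and without PND2 replicate 1 it was 3.53 (adjusted p = 0.176). The EF-hand exon of 81 bases that the annotation gives for Actn4 stood at 242, 296 and 246 RPKM and then at 614, 519 and 587 RPKM, a difference in use of 0.23 ± 0.039 (SE, adjusted p = 0.15, limma).

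Cald1 makes a heavy form in smooth muscle, h-caldesmon, through a longer central exon, and a light form elsewhere. The part of the central exon that only the heavy form holds stood at 86.3, 162 and 125 RPKM at PND2 and at 380, 318 and 289 RPKM at 4 months. The shared part stood at 160, 261 and 203 RPKM and then at 424, 370 and 301 RPKM. The ratio of the heavy part to the shared part was 0.538, 0.621 and 0.617 at PND2 and 0.896, 0.860 and 0.961 at 4 months (exact permutation test, p = 0.1), with no overlap.

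The use of the heavy part against the whole Cald1 gene differed by 0.34 ± 0.13 (SE, adjusted p = 0.413, limma). That of the shared part differed by -0.27 ± 0.087 (SE, adjusted p = 0.345, limma), and ratios to the shared part include this difference. An extra exon of 78 bases just after it went from 0.849, 1.01 and 0.841 to 1.48, 1.53 and 1.33 times the shared part, fully separated between the ages (p = 0.1, exact permutation test). The downstream first exon of Cald1 made up 11.4, 10.4 and 10.6% of both first exons at PND2 and 5.00, 3.36 and 1.92% at 4 months. That exon rested on 5 to 23 reads per library, and its use differed by -2.104 ± 0.38 (SE, adjusted p = 0.165, limma).

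Vcl carries an extra exon of 204 bases (68 codons, chr14:21029176-21029379) that makes meta-vinculin, the muscle form. Its level was 182, 226 and 199 RPKM at PND2 and 250, 199 and 219 RPKM at 4 months. Relative to the mean of its neighbouring exons it was 0.852, 0.886 and 0.851 at PND2 and 0.974, 0.910 and 0.983 at 4 months, higher in all 3 libraries (exact permutation test, p = 0.1) by 0.093 on average. Its use against the gene differed by 0.16 ± 0.066 (SE, adjusted p = 0.449, limma).

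The 2 ends of Vcl, a long transcript, were also compared. Its last exon stood at 2.94, 1.83 and 2.104 times its first exon at PND2 and 2.39, 3.04 and 2.68 times at 4 months. PND2 replicate 1 and replicate 2 at 4 months had the highest ratio within their ages, and the ages overlapped. Mean levels of the last exon were 209 RPKM at PND2 and 237 RPKM at 4 months, and 18 coding exons had medians of 211 and 190 RPKM. The first exon was thus low, and a ratio in 1 gene cannot show how evenly the libraries covered transcripts. The part of uneven coverage in the results on first and last exons was not tested.

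Genes that act with tropomyosins were counted on lists. Of 12 smooth muscle contractile genes, 11 rose and none fell, beside 35.8% of all genes that passed (14.7% higher at 4 months). Their median log2 fold change was 1.42 against -0.14 over all genes. The smooth muscle actin Acta2 went from 4677 ± 476 to 12236 ± 3395 RPKM (SD, n = 3) and the actin cross-linker Tagln from 2629 ± 74.0 to 5883 ± 1557 RPKM. The smooth muscle myosin heavy chain Myh11 rose most of the 4 with the highest means, from 156 ± 38.6 to 1729 ± 451 RPKM. For Myh11 the change was 3.47 ± 0.25 on the log2 scale (SE, adjusted p = 1.30e-04, limma). The light chain Myl9 went from 1879 ± 166 to 3988 ± 1194 RPKM. Desmin (Des), at a log2 fold change of -0.31 (adjusted p = 0.145, limma), was the 1 that did not pass, and the list includes all 6 smooth muscle markers.

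Tropomodulins and leiomodins cap or seed actin filaments at the end where tropomyosin binds them. Of these 7 genes, 1 rose, 1 fell and 5 did not pass, a smaller share than the 35.8% of all genes that passed. Lmod1, the smooth muscle leiomodin, rose from 47.0 ± 5.56 to 215 ± 53.5 RPKM (SD, n = 3). Its change was 2.17 ± 0.18 on the log2 scale (SE, adjusted p = 2.30e-04, limma). Tmod1, the striated muscle tropomodulin, fell from 143 ± 7.05 to 86.2 ± 14.96 RPKM (adjusted p = 0.00535, limma). Without PND2 replicate 1, 2 of these genes rose, and without replicate 2 at 4 months 2 fell.

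Of 17 non-muscle actomyosin genes, 2 rose, 4 fell and 11 did not pass, a share close to the 35.8% of all genes that passed, with a median log2 fold change of -0.020 against -0.14 over all genes. The light chain Myl6 rose from 1299 ± 118 to 2468 ± 642 RPKM (SD, n = 3). The light chain Myl12a fell from 361 ± 14.0 to 240 ± 12.2 RPKM, calponin 2 (Cnn2) from 215 ± 20.1 to 153 ± 28.4 RPKM and cortactin (Cttn) from 111 ± 14.7 to 62.3 ± 3.23 RPKM. Only 1 rose when PND2 replicate 1, PND2 replicate 3 or replicate 3 at 4 months was left out.

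Of 17 focal adhesion partners of vinculin and alpha-actinin, 7 rose, 3 fell and 7 did not pass, beside 35.8% of all genes that passed, with a median of 0.0099 against -0.14. Filamin A (Flna), another actin cross-linker, rose from 703 ± 184 to 1677 ± 321 RPKM, tensin 1 (Tns1) from 116 ± 15.5 to 295 ± 36.5 RPKM and zyxin (Zyx) from 136 ± 23.7 to 223 ± 36.5 RPKM (SD, n = 3). Talin 1 (Tln1), which binds vinculin directly, rose from 123 ± 18.0 to 168 ± 22.3 RPKM (adjusted p = 0.0443, limma). Only 4 rose without replicate 3 at 4 months and 3 without PND2 replicate 3.

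The list of splicing regulators for tropomyosin and actinin exons held 18 genes, read without regard to direction of effect. Whether each of them acts on these exons was not tested. Of the 17 that could be tested, 5 rose, 7 fell and 5 did not pass, beside 35.8% of all genes that passed, with a median log2 fold change of -0.34 against -0.14. Rbpms, a splicing factor of smooth muscle, rose from 100 ± 6.73 to 143 ± 18.6 RPKM (SD, n = 3, adjusted p = 0.0139, limma). Ptbp1, a repressor of muscle exons, fell from 64.3 ± 9.65 to 46.2 ± 4.04 RPKM (adjusted p = 0.0313, limma), Hnrnpl from 86.6 ± 8.18 to 66.3 ± 4.45 RPKM and Srsf1 from 78.4 ± 4.79 to 61.6 ± 2.63 RPKM. These 4 were named for their mean RPKM. The largest change on the list was that of Mbnl1, named here after its values were seen. It rose from 16.9 ± 1.22 to 58.9 ± 1.37 RPKM, by 1.79 ± 0.092 on the log2 scale (SE, adjusted p = 3.69e-05, limma). No regulator was called lower with median scaling or without replicate 3 at 4 months. Only 1 was called lower without PND2 replicate 2 or PND2 replicate 3, and 3 without replicate 2 at 4 months. The rises came to 2 when PND2 replicate 3 was left out, and to 3 for PND2 replicate 2 or any 1 library from 4 months.

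Of 8 factors of the serum response factor and myocardin group, 1 rose, 2 fell and 5 did not pass, close to the 35.8% of all genes that passed, with a median of -0.11 against -0.14 over all genes. Foxo1, a restrainer of myocardin, rose from 10.9 ± 1.11 to 17.1 ± 0.684 RPKM (SD, n = 3). Tead1 had 33.9 ± 5.38 RPKM at PND2 and fell to 18.9 ± 2.34 RPKM. Tead4 had 2.42 ± 0.233 RPKM and fell to 1.17 ± 0.248 RPKM. Srf itself stood at 44.7 ± 6.07 and 41.5 ± 3.27 RPKM and Myocd at 24.8 ± 0.809 and 25.5 ± 3.89 RPKM, and neither passed.

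The genes whose level over the 6 libraries was most like that of Tpm1, among 10711 others with a mean of at least 10 RPKM, were Gm17036, Ndufaf1 and Gm29331, with a root mean square difference of 0.074, 0.077 and 0.077 in centred log2(RPKM + 0.1). For Tpm2 they were Acbd4, Slc25a34 and Izumo4, at 0.088, 0.102 and 0.108.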

How the data were processed

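RNA-seq of aortic valves at PND2 and at 4 months (3 libraries per age) was used. Per the submitters' processing notes and the study's methods, reads were aligned to mm10 with TopHat2 2.1.0 and counted on Ensembl genes and exons with easyRNASeq (R 3.2.2). The authors deposited RPKM per gene and exon. Rows that repeat an exon's coordinates held identical values and were kept once (387776 of 448141). Whole reads were recovered from RPKM, length and library total for counting error (tolerance 0.001 reads for exons and 0.01 for genes). The library kit keeps strand, per the study's methods. The sources used here do not say if reads or read pairs were counted, if the counting used strand, or how shared reads were counted.

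Ages were compared in R 4.3.3 with limma 3.58.1 (eBayes, variance trend) on log2(RPKM + 0.1), with 2-sided p-values and Benjamini-Hochberg adjustment over everything tested. This scale understates changes of low values. A gene was tested at 0.1 RPKM or more in 3 libraries. Exon use is the log2 exon value minus the log2 gene value, for exons at 1 RPKM or more in 3 libraries of genes at 1 RPKM or more in all. Pair ratios had the same minimum for 1 exon of the pair. Shares were tested by exact permutation. Python 3.11.15, pandas 2.3.3, scipy 1.17.1, matplotlib 3.10.9 and version 1.17.8 of data.table were also used. The tests were checked on simulated data with planted changes and a fixed dispersion. For exon use, that simulation held the gene level constant over libraries, so it did not cover the spread of the gene level.

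The members, lists and rules were chosen with earlier results of these data known. Named were the members, the exons of known alternative events, up to 3 passing exons per member that differed by over 1, up to 4 passing genes of each list by mean RPKM, and the 3 genes most like Tpm1 and Tpm2. Alternatives changed the pseudocount, filter, trend, scaling, test, exon reference and replicate block, and left out each library.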

Additional observations from a re-analysis of the deposited data

How the results depend on the processing

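Over the gene levels, exon uses, pair ratios, shares and list counts, most alternatives left the direction and the side of the threshold as reported, and the cause of each difference below was not tested. The 6 called member genes passed under pseudocounts, filters, scaling, voom on recovered reads and each library left out. With an unequal-variance test of each gene alone, 1466 genes were higher and 1942 lower, members lower came to 1, and Tpm3 (-0.57, adjusted p = 0.0520) and Actn1 (0.83, adjusted p = 0.0580) did not pass. Under that test the smooth muscle contractile list had 6 rises, non-muscle actomyosin 1 rise and 2 falls, focal adhesion partners 2 rises and 1 fall, splicing regulators 3 rises and 1 fall, tropomodulins 0 falls, and the SRF factors 0 of either. Vcl was 0.11 with median scaling, and splicing regulators had 0 falls with median scaling or no trend.

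Exons called over the whole table numbered 138 higher and 218 lower with a pseudocount of 0.01, 1421 and 1669 with diffSplice, and 1058 and 690 against the mean of the other exons. Member exons called were 17 with diffSplice, 18 against the other exons and 1 with no trend. Pairs called were 15 with a pseudocount of 1, where Tpm1 exon 2 (2.37) and Actn4 exon 8 (3.60) passed, and 2 with no trend, where Tpm2 exon 6 (3.43) did not.

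Leaving out 1 library gave 3503 to 5241 genes lower, 0 to 19 exons higher, 0 to 10 exons lower, 0 member exons and 2 to 10 pairs. The log2 difference ranged from -0.079 to 0.023 for Vcl. In pair ratios it ranged from 3.11 to 3.75 for Tpm2 exon 6, 1.93 to 2.85 for Tpm1 exon 2, -0.066 to 0.27 for Tpm1 exon 6, -0.63 to 0.067 for Tpm3 exon 6 and -0.10 to 0.043 for the constitutive Actn1 pair. Rises and falls were 1 to 2 and 1 to 2 for tropomodulins and 2 to 5 and 0 to 7 for splicing regulators. Rises were 1 to 3 for non-muscle actomyosin and 3 to 6 for focal adhesion partners.

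Replicate numbers are shared by the ages, but deviations of same-numbered libraries correlated at 0.044, -0.061 and -0.16, so the numbers were not taken to pair pups with adults. With the number as a replicate block, 0 exons were higher, 0 lower and 0 member exons were called, splicing regulators had 3 rises and 1 fall, and SRF factors 1 fall. Tpm2 exon 6 still passed (3.43, adjusted p = 0.0293).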
